A study of Mus musculus with 8 samples.

Results

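The unfolded protein response and the integrated stress response were followed through 38 genes in the livers of mice given an antibody against CD47 or a control antibody. CD47, carried on the surface of most cells, is the ligand through which macrophages are told not to engulf them. The genes were chosen by name as known members of these pathways, with earlier results of these data known. All 38 were found among the 54309 genes of the deposited count table through the identifiers and symbols of the authors' deposited comparison table. They were described in 3 arms: 13 chaperones and folding enzymes of the endoplasmic reticulum (ER), 13 genes of the XBP1 branch and of ER-associated degradation (ERAD), grouped with the sensors IRE1, ATF6 and ATF6B, and 12 genes of the PERK and ATF4 branch.

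Male C57BL/6 mice ate a diet of fructose, palmitate and cholesterol (FPC) for 16 weeks to develop steatohepatitis, and were injected intraperitoneally from week 8 to week 16. One treatment was CD47 antibody (200 µg per mouse) and the other IgG, with 7 to 8 mice per treatment in the series and 4 liver libraries of each measured here, named antiCD47 1 to 4 and IgG 1 to 4. Every library therefore comes from a liver already under a dietary load, and no library from a healthy or untreated liver was analysed here. The labels do not tie a library to an animal, so the p-values measure the spread between libraries, which may be technical. The labels used here state no ages. The series title places the comparison in the clearance of dying hepatocytes by macrophages and in liver scarring.

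Proteins that enter the ER must fold before they leave it. When unfolded protein accumulates, IRE1 splices the Xbp1 mRNA, ATF6 moves to the Golgi and is cut into an active factor, and PERK phosphorylates the translation factor eIF2α, which lowers general translation but favours that of ATF4. Hepatocytes secrete most plasma proteins and carry a large ER, and fatty liver disease and the acute phase reaction are both known settings of ER stress.

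All 38 members passed the filter on low counts, with at least 65 counts of a member in any library. Total counts per library ran from 43691472 to 55477484. Levels are given as CPM, counts per 1000000 of a library size corrected by TMM (trimmed mean of M values), and groups were compared with edgeR's quasi-likelihood test with p-values adjusted over all 15472 genes tested, at a threshold of 0.05. The liver identity of the libraries showed in the hepatocyte markers Alb and Apoa1, the albumin and apolipoprotein genes with the highest levels of their list: Alb lay at 43202 to 52171 CPM in antiCD47 and at 41018 to 44610 CPM in IgG. Tissue was sequenced in bulk, so a change in the number of cells of a type and a change in RNA per cell cannot be told apart.

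Of the 38 members 5 rose in antiCD47 livers: the chaperone gene Dnajb9, the transcription factor genes Xbp1 and Atf4, the sensor gene Ern1 and the phosphatase subunit gene Ppp1r15a. By the same rule 842 genes, 5.44% of all tested, were higher, and 10.8% passed in either direction. Against that background the count of chaperones, 1 of 13, was close to that of any gene, and 2 of 13 and 2 of 12 passed in the other arms. No member was lower by edgeR, DESeq2 or limma voom, which called 5.4%, 9.96% and 6.11% of all genes lower, nor at an unadjusted p under 0.05 in any of these tools. The fitted log2 fold change was above 0 in 35 members, as it was in 49.0% of all genes. The median member stood at a log2 fold change of 0.49, and the median of all genes at -0.01. At an unadjusted p under 0.05, 23 members were higher, where 16.6% of all genes were. Other tools and scalings called 12 members higher by DESeq2 (11.4% of all genes), 4 by limma voom (5.21%), 4 with upper quartile scaling (4.1%) and 3 with library totals alone (2.77%). With library totals alone 1 member, Derl2, was lower, and 2 were lower at an unadjusted p under 0.05, in a fit that called 20.4% of all genes lower. In that fit 10 members were higher at an unadjusted p under 0.05, as were 851 of 15472 genes. The median member stood at 0.295 there, and the median of all genes at -0.19. The medians of the arms were 0.41 for chaperones, 0.24 for the XBP1 and ERAD arm and 0.18 for the ATF4 arm.

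**Figure D1:**
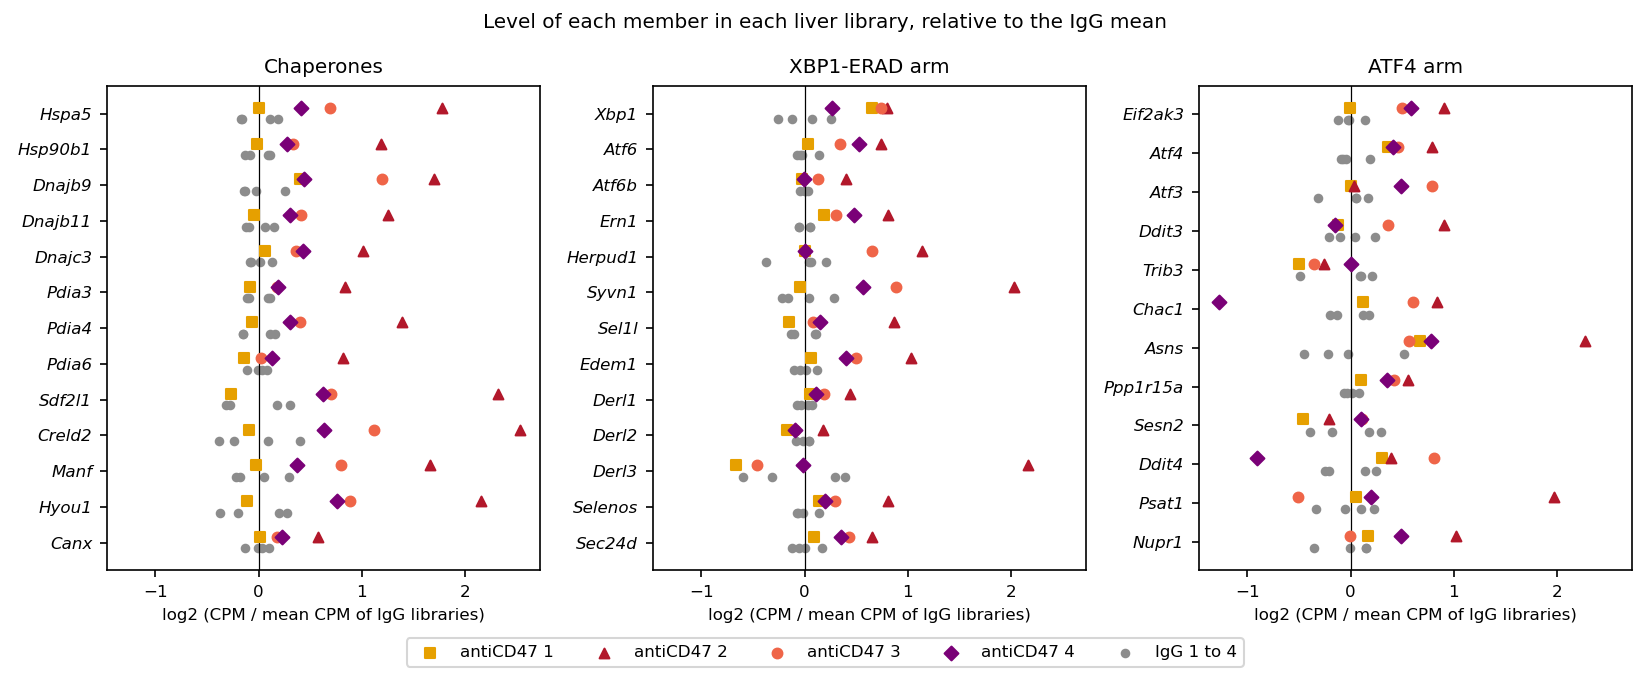
Level of each of the 38 members in each library, as log2 of CPM over the mean CPM of the IgG libraries, by arm; coloured symbols are the 4 antiCD47 libraries and grey points the 4 IgG libraries. The triangle of antiCD47 2 is the highest of the 8 libraries in 34 members (26.8% of all genes). The square of antiCD47 1 lies inside the IgG range in 23 (7972 of the 15472 genes tested).

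The 4 antiCD47 libraries were not alike. The library antiCD47 2 had the highest level of all 8 libraries in 34 of 38 members, and in 26.8% of all genes. The library antiCD47 1 was the lowest of its group in 31 members, against 29.0% of all genes. It lay within the range of the IgG libraries in 23 members, and in 7972 of the 15472 genes tested. Over the 38 members, the median log2 ratio to the IgG mean was 0.00 in antiCD47 1, 0.88 in antiCD47 2, 0.41 in antiCD47 3 and 0.30 in antiCD47 4, and between -0.09 and 0.14 in the IgG libraries. The spread was larger in antiCD47 than in IgG in 36 members, against 65.7% of all genes, with a median coefficient of variation of 32.7% in antiCD47 and 12.0% in IgG. Over all genes these medians were 14.1% in antiCD47 and 9.87% in IgG. Even the IgG libraries had an order, with IgG 2 the highest of its group in 29 members, against 29.4% of all genes.

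The calls rested in part on single libraries. Without antiCD47 2, only Atf4 among the 38 members passed, in a fit that called 2.34% of all genes higher, and 17 members were higher at an unadjusted p under 0.05, where 12.8% of all genes were. Without antiCD47 1, 21 members passed, all higher, in a fit that called 11.7% of all genes higher. None of the 5 calls held without antiCD47 3, IgG 1, IgG 3 or IgG 4, in fits that called 0.108%, 0.581%, 0.3% and 0.0128% of all genes higher. Dnajb9, Xbp1 and Atf4 held without antiCD47 4 and without IgG 2, where 5.24% and 5.08% of all genes were called higher, and without IgG 2 and antiCD47 2 together (3.7% of all genes higher). With antiCD47 2 left out the median member stood at 0.25 and 33 of 38 fold changes were above 0.

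The chaperone arm held the widest differences between libraries. Dnajb9, which encodes ERdj4, a co-chaperone of BiP that also restrains IRE1, had 105, 260, 183 and 108 CPM in antiCD47 1 to 4 and 78.6, 95.6, 72.7 and 72.5 CPM in IgG 1 to 4. All antiCD47 libraries lay above all IgG libraries, as in 9.51% of genes tested. The log2 fold change was 1.04 ± 0.27 (SE; edgeR adjusted p = 0.0407), and 0.73 without antiCD47 2 (edgeR adjusted p = 0.0620). It was the only chaperone whose groups did not overlap.

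Hspa5, the gene of BiP, the central chaperone of the ER lumen that also holds the sensors inactive, had 658, 2249, 1064 and 872 CPM in antiCD47 1 to 4 and 582, 749, 586 and 711 CPM in IgG 1 to 4. The library antiCD47 2 stood at 3.42 times the IgG mean and antiCD47 1 at 1.00 times, inside the IgG range. Hspa5 averaged 1211 ± 712 CPM in antiCD47 and 657 ± 85.4 CPM in IgG (SD, n = 4 each) and did not pass (log2 fold change 0.88 ± 0.33, edgeR adjusted p = 0.0989). It passed without antiCD47 1 (edgeR adjusted p = 0.0284; 0.0284 to 0.207 over the alternatives).

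The highest ratio in antiCD47 2 was that of Creld2, which encodes a secreted ER protein with disulfide isomerase activity. Creld2 had 38.4, 237, 88.7 and 63.7 CPM in antiCD47 1 to 4 and 31.3, 54.2, 34.6 and 43.7 CPM in IgG 1 to 4. That placed antiCD47 2 at 5.80 times the IgG mean and antiCD47 1 within the IgG range. Sdf2l1, a partner of ER J-domain co-chaperones, had 12.5, 75.0, 24.4 and 23.1 CPM in antiCD47 1 to 4 and 12.4, 18.6, 12.1 and 17.0 CPM in IgG 1 to 4. Hyou1, which exchanges the nucleotide of BiP, had 116, 555, 230 and 211 CPM in antiCD47 1 to 4 and 109, 151, 96.3 and 143 CPM in IgG 1 to 4. In these 3 genes antiCD47 2 stood at 4.44 to 5.80 times the IgG mean, antiCD47 3 and antiCD47 4 at 1.54 to 2.17 times, and none passed (edgeR adjusted p = 0.0853 for Creld2, 0.119 for Sdf2l1 and 0.0851 for Hyou1).

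Manf, the gene of a small ER protein released under stress, followed with 75.4, 242, 133 and 99.0 CPM in antiCD47 1 to 4 and 67.3, 93.6, 65.9 and 79.2 CPM in IgG 1 to 4 (log2 fold change 0.85 ± 0.31, edgeR adjusted p = 0.0977). Among the disulfide isomerases, antiCD47 2 stood at 2.63 times the IgG mean for Pdia4, 1.79 times for Pdia3 and 1.76 times for Pdia6. Their log2 fold changes were 0.62, 0.32 and 0.26, and none passed. Hsp90b1 (GRP94, a chaperone of the HSP90 family), Dnajb11 (ERdj3) and Dnajc3 (p58IPK), co-chaperones of BiP, were at log2 0.52, 0.56 and 0.51, and the lectin chaperone gene Canx (calnexin) at 0.26, with edgeR adjusted p-values from 0.0813 for Dnajc3 to 0.148 for Canx.

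Over the arm, the median log2 ratio to the IgG mean was -0.04 in antiCD47 1, 1.39 in antiCD47 2, 0.41 in antiCD47 3 and 0.37 in antiCD47 4. The library antiCD47 2 was the highest of the 8 and antiCD47 1 the lowest of its group in 13 of 13 chaperones, and IgG 2 the highest of its group in 12. The fitted median was 0.62. Without antiCD47 2 it was 0.29 and edgeR called 0 of 13 (2.34% of all genes higher), with 5 higher at an unadjusted p under 0.05 (12.8% of all genes). Without antiCD47 1 it was 0.79 and 10 of 13 passed, all higher, in a fit that called 11.7% of all genes higher.

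ER chaperone promoters are known for the ER stress response element (ERSE), to which ATF6 and XBP1 bind together with the CCAAT-binding factor NF-Y. The motif, CCAAT and CCACG with 9 bases of any kind between them, was searched on both strands in RefSeq promoter windows of 300 bases, from 250 before the gene start to 50 after it (build GRCm38.p6), which were available for 34 members. Windows of 8 members held it, 6 of them chaperones, against 0.137% of the 27025 genes with a window. The sites are shown because they are what these members share beyond their function. They are printed 5′ to 3′ on the strand of the motif with CCAAT and CCACG in capitals and 5 flanking bases on each side; Hsp90b1 has a second site.
Hspa5, chr2:34772025-34772043, + strand: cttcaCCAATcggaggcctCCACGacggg
Hsp90b1, chr10:86705533-86705551, + strand: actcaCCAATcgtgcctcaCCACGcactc
Creld2, chr15:88819520-88819538, - strand: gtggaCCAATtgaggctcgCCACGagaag
Dnajc3, chr14:118937827-118937845, + strand: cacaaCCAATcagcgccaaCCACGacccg
Pdia6, chr12:17266491-17266509, + strand: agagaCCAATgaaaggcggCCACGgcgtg
Canx, chr11:50325800-50325818, - strand: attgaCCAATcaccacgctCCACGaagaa
Syvn1, chr19:6046532-6046550, + strand: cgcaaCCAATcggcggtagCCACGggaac
Derl3, chr10:75893242-75893260, - strand: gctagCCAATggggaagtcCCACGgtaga

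The spacer between the boxes differed in every line, while the boxes are those of the search. The related motif ERSE-II, ATTGG and CCACG with 1 base of any kind between them, also searched on both strands, was found in windows of 2 members, Herpud1 and Dnajb11, and of 0.0444% of all genes; it does not overlap the spaced motif in these windows. In the 8 members with the spaced motif, antiCD47 2 stood at 1.49 to 5.80 times the IgG mean, with a median of 2.85, and the fitted log2 fold changes ran from 0.26 to 1.39. In the 18 members whose windows held neither motif nor the motifs given below for Sec24d and for ATF4 binding, antiCD47 2 stood at 0.86 to 4.99 times the IgG mean, with a median of 1.77. The 5 members that passed are all among these 18, in a fit that called 5.44% of all genes higher. The search allowed no mismatch in the letters of a motif, so a window without a match may still hold a near match. The sets differ in arm, with 6 chaperones among the 8. Within the chaperones, antiCD47 2 stood at 1.49 (Canx) to 5.80 times (Creld2) with the spaced motif. With none of the motifs it stood at 1.79 (Pdia3) to 4.99 times (Sdf2l1). A link between motif and level was not tested.
Herpud1, chr8:94386377-94386387, + strand: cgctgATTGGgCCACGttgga
Dnajb11, chr16:22857852-22857862, + strand: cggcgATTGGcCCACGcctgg

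To place the Hspa5 site in its promoter, the 250 bases before the start of Hspa5 (chr2:34771840-34772089, + strand) are given. Capitals mark the boxes of its exact match to the spaced motif. Near matches were not searched for and stay in lower case. The same stretch of Dnajb9 (chr12:44210069-44210318, - strand), the chaperone that passed, has no match to either spaced or compact ERSE, and the capitals mark CCACG alone, which 35.5% of all genes hold in this window on either strand.
Hspa5: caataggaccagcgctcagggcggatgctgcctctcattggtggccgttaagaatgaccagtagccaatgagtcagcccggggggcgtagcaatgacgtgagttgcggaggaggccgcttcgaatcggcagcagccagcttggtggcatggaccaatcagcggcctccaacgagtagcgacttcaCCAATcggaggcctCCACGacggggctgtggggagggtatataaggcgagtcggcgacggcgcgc
Dnajb9: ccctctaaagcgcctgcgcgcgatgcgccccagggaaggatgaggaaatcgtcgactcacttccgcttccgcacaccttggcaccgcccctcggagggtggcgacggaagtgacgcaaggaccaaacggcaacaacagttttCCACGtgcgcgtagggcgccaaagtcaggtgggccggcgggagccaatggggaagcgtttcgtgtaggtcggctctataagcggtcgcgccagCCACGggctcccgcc

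**Figure D2:**
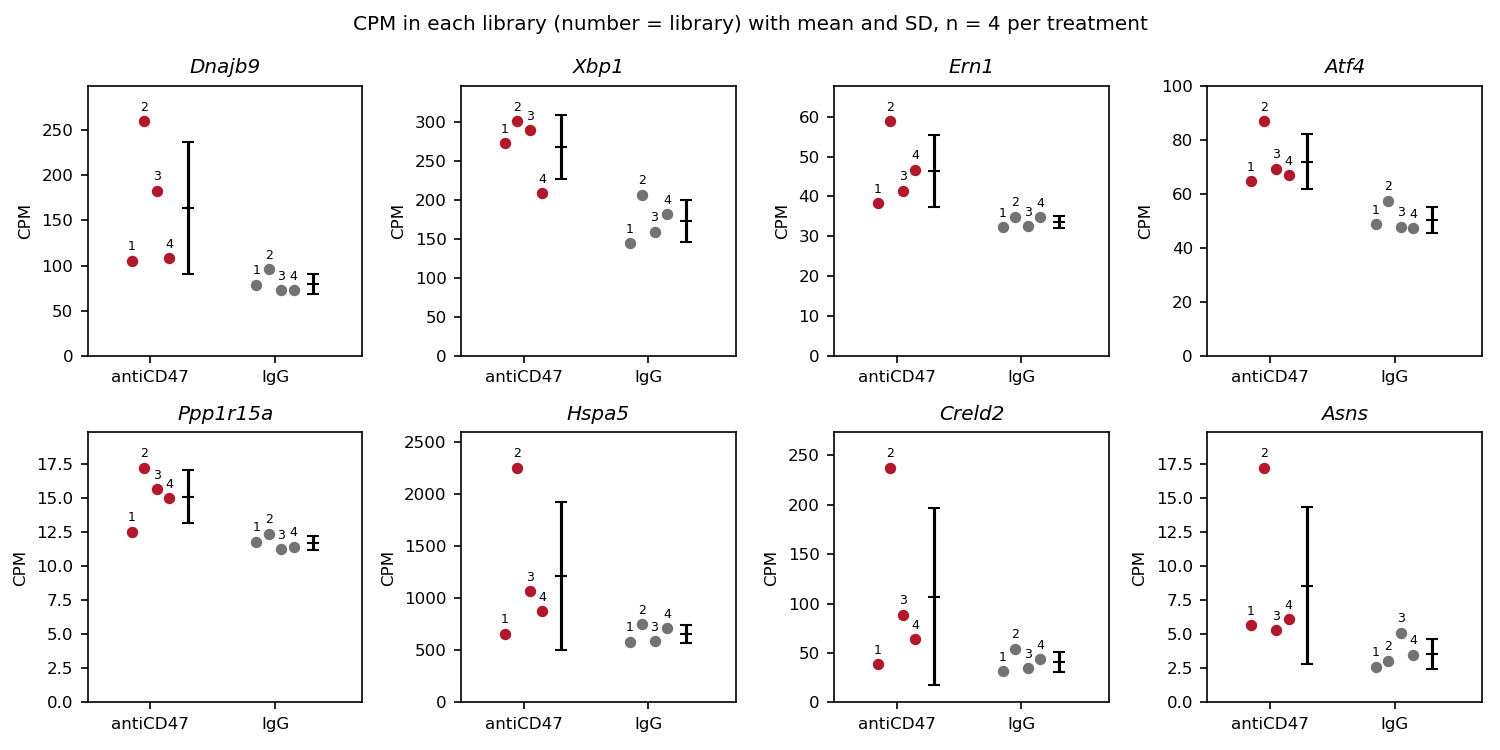
CPM of the 5 members that passed and of Hspa5, Creld2 and Asns in every library (numbered points), with mean and SD at the side (n = 4 per treatment; axes start at 0). The groups do not overlap for Dnajb9, Xbp1, Ern1, Atf4, Ppp1r15a and Asns, and for Hspa5 and Creld2 antiCD47 1 sits among the IgG libraries while antiCD47 2 reaches 2249 and 237 CPM.

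In the XBP1 and ERAD arm, Xbp1 and Ern1 rose. Xbp1, the transcription factor gene whose mRNA is cut by IRE1, had 273, 301, 289 and 208 CPM in antiCD47 1 to 4 and 145, 207, 159 and 182 CPM in IgG 1 to 4. Here antiCD47 1 stood with the high libraries, at 1.58 times the IgG mean, and antiCD47 4 was the lowest of its group, only just above IgG 2. Xbp1 averaged 268 ± 41.1 CPM in antiCD47 and 173 ± 27.1 CPM in IgG (SD, n = 4 each; log2 fold change 0.63 ± 0.14, edgeR adjusted p = 0.0280). Without antiCD47 2 its log2 fold change was 0.57 (edgeR adjusted p = 0.0559; 0.000468 to 0.0849 over the alternatives). Counts per gene do not separate the spliced from the unspliced Xbp1 mRNA.

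Ern1, the gene of the sensor IRE1α, had 38.3, 58.9, 41.4 and 46.8 CPM in antiCD47 1 to 4 and 32.3, 35.0, 32.5 and 34.8 CPM in IgG 1 to 4. The groups did not overlap, and the IgG libraries lay close together (log2 fold change 0.46 ± 0.12, edgeR adjusted p = 0.0429; 0.33 and adjusted p = 0.0504 without antiCD47 2). Atf6, the gene of the second sensor, had 85.1, 139, 106 and 120 CPM in antiCD47 1 to 4 and 79.1, 91.6, 80.8 and 81.9 CPM in IgG 1 to 4 and did not pass (log2 0.43, edgeR adjusted p = 0.0621; 0.00929 without antiCD47 1). Its paralog Atf6b was at log2 0.14, and at -0.0548 when scaled by library totals, with 18.7 to 25.1 CPM in antiCD47 and 18.5 to 19.4 CPM in IgG.

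ERAD draws misfolded proteins out of the ER for destruction by the proteasome. Syvn1, the gene of its ubiquitin ligase HRD1, had 62.1, 261, 118 and 94.9 CPM in antiCD47 1 to 4 and 57.6, 78.2, 55.2 and 65.9 CPM in IgG 1 to 4. The pattern was that of the chaperones, with antiCD47 2 at 4.07 times the IgG mean and antiCD47 1 among the IgG libraries (log2 1.06 ± 0.37, edgeR adjusted p = 0.0858). Sel1l, the partner of HRD1, reached 1.82 times the IgG mean in antiCD47 2 and stayed at 0.90 to 1.11 times in the other antiCD47 libraries. Herpud1, an ERAD scaffold, had 433, 952, 678 and 434 CPM in antiCD47 1 to 4 and 446, 500, 449 and 332 CPM in IgG 1 to 4, so antiCD47 1 and antiCD47 4 lay within the IgG range.

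Edem1, which delivers mannose-trimmed glycoproteins to ERAD, was at log2 0.54 (edgeR adjusted p = 0.0687), and Selenos, a selenoprotein of the ERAD membrane complex, at 0.39 (edgeR adjusted p = 0.0924). The Selenos groups did not overlap, by a margin of 49.44 CPM in antiCD47 1 over 49.43 CPM in IgG 2. Sec24d, a COPII coat subunit that loads cargo for export, had 114, 168, 144 and 136 CPM in antiCD47 1 to 4 and 107, 120, 98.0 and 103 CPM in IgG 1 to 4, and missed the threshold (log2 0.39 ± 0.11, edgeR adjusted p = 0.0533; 0.0119 to 0.142 over the alternatives). Its window holds the 8 letters TGACGTGG of the XBP1-bound unfolded protein response element, found in 0.714% of all genes, at chr3:123267470-123267477.
Sec24d, + strand, motif in capitals: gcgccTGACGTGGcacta

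The derlins are membrane proteins through which ERAD substrates leave. Derl1 was at log2 0.21 and Derl2 at -0.04, the only member of the arm below 0; Derl2 was lower in 1 alternative, scaling by library totals (edgeR adjusted p = 0.0433; 20.4% of all genes lower), which moves the median of all genes to -0.19. Derl3, which secretory cells use, had 1.298, 9.26, 1.49 and 2.04 CPM in antiCD47 1 to 4 and 1.37, 2.71, 1.66 and 2.52 CPM in IgG 1 to 4. The library antiCD47 2 alone lay above the IgG range, and without it the log2 fold change turned to -0.36, against 0.77 with it.

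Over the arm the fitted median was 0.43, and 0.26 without antiCD47 2, where edgeR called 0 of 13 (2.34% of all genes higher) with 7 higher at an unadjusted p under 0.05 (12.8% of all genes). The library antiCD47 2 was the highest of the 8 in 13 of 13 members. Without antiCD47 1, 7 of 13 passed, all higher, where 11.7% of all genes were called higher. By DESeq2 6 of 13 were higher, where that tool called 11.4% of all genes higher.

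**Figure D3:**
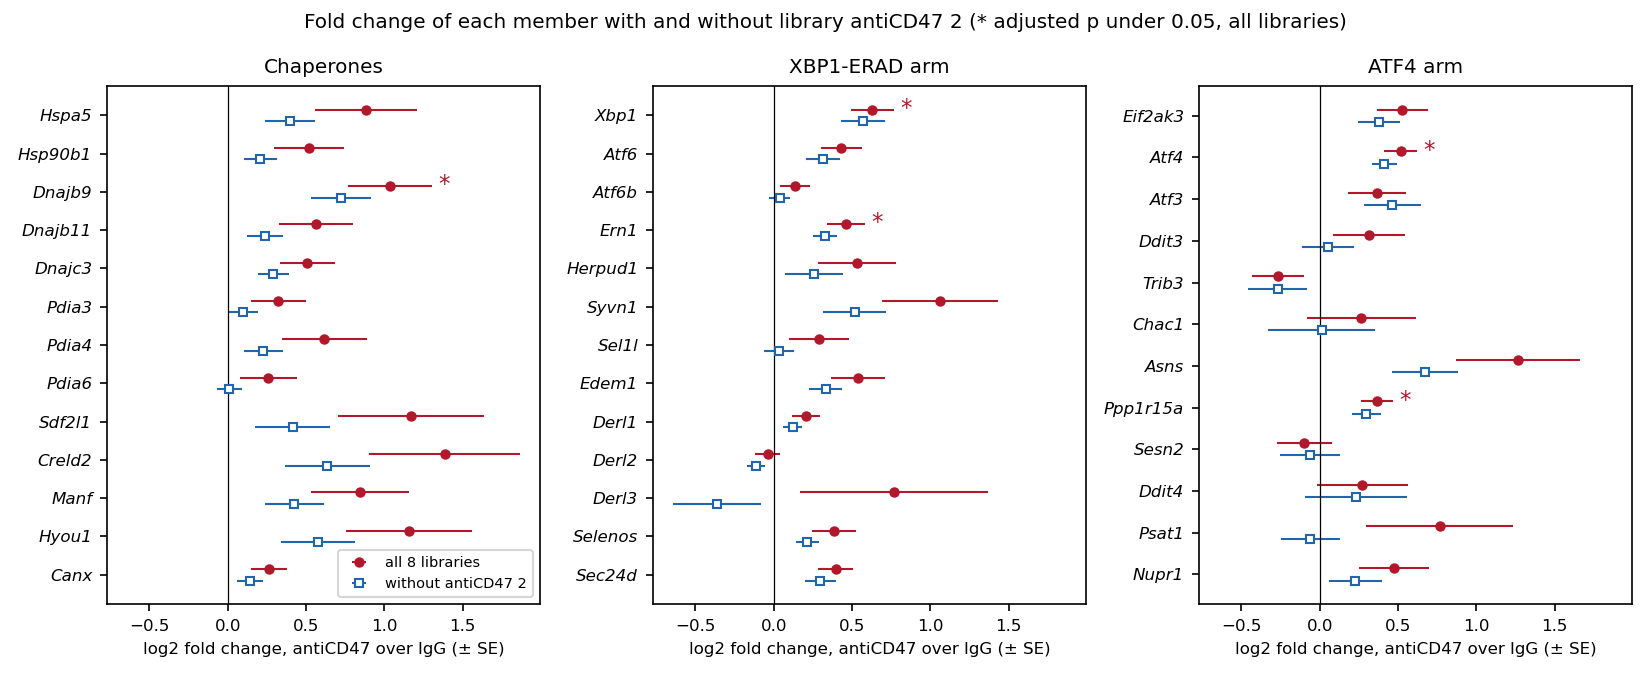
Log2 fold change of each member, antiCD47 over IgG, with its SE, from the fit of all 8 libraries (filled circles) and from the fit without antiCD47 2 (open squares); stars mark adjusted p under 0.05 with all libraries. Leaving out antiCD47 2 brings the chaperone median to 0.29 and turns Derl3 and Psat1 below 0, while Xbp1 is at 0.57 and Atf4 at 0.41 without it.

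In the PERK and ATF4 arm, Atf4 and Ppp1r15a rose. Atf4, the gene of the transcription factor that eIF2α phosphorylation favours, had 64.8, 87.1, 69.5 and 67.2 CPM in antiCD47 1 to 4 and 48.8, 57.6, 48.0 and 47.4 CPM in IgG 1 to 4. All antiCD47 libraries exceeded all IgG libraries, IgG 2 included. Atf4 averaged 72.1 ± 10.2 CPM in antiCD47 and 50.5 ± 4.77 CPM in IgG (SD, n = 4 each; log2 fold change 0.52 ± 0.11, edgeR adjusted p = 0.0247), and it was the member that passed without antiCD47 2 (log2 0.41, edgeR adjusted p = 0.0326). Over all 17 alternatives it passed in 13.

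Eif2ak3, the gene of the kinase PERK, had 24.7, 46.4, 35.0 and 37.2 CPM in antiCD47 1 to 4 and 24.5, 27.4, 24.7 and 22.9 CPM in IgG 1 to 4. The libraries antiCD47 2, 3 and 4 lay above the IgG range and antiCD47 1 inside it (log2 0.53 ± 0.16, edgeR adjusted p = 0.0615; 0.00677 without antiCD47 1). Ppp1r15a, the gene of GADD34, which directs the phosphatase that reverses eIF2α phosphorylation, had 12.5, 17.2, 15.7 and 15.0 CPM in antiCD47 1 to 4 and 11.8, 12.4, 11.2 and 11.4 CPM in IgG 1 to 4. The groups were separate but antiCD47 1 cleared IgG 2 narrowly. Ppp1r15a passed (log2 0.37 ± 0.10, edgeR adjusted p = 0.0459) and did so in 5 of 17 alternatives (adjusted p = 0.00929 to 0.169). In the authors' deposited table its adjusted p was 0.479.

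Among ATF4 targets of amino acid supply, Asns, the asparagine synthetase gene, had 5.67, 17.2, 5.28 and 6.11 CPM in antiCD47 1 to 4 and 2.61, 3.06, 5.10 and 3.49 CPM in IgG 1 to 4. The groups did not overlap, though antiCD47 2 stood at 4.83 times the IgG mean and antiCD47 3 just above IgG 3 (log2 1.26 ± 0.40, edgeR adjusted p = 0.0656; 0.67 and 0.0914 without antiCD47 2). Psat1, an enzyme of serine synthesis, had 5.37, 20.3, 3.65 and 5.95 CPM in antiCD47 1 to 4 and 4.12, 5.57, 4.99 and 6.08 CPM in IgG 1 to 4. Only antiCD47 2 left the IgG range, and without it the log2 fold change was -0.06, against 0.77 with it.

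Of the genes tied to prolonged stress and cell death, Ddit3, the gene of CHOP, a factor that favours apoptosis, had 4.09, 8.36, 5.75 and 4.03 CPM in antiCD47 1 to 4 and 4.60, 5.26, 4.15 and 3.86 CPM in IgG 1 to 4, with overlapping groups (log2 0.32 ± 0.23, edgeR adjusted p = 0.364). Its targets Trib3, a pseudokinase that restrains AKT, and Chac1, which degrades glutathione, were at log2 -0.27 and 0.27. Trib3 had 4.19, 4.97, 4.65 and 5.93 CPM in antiCD47 1 to 4 and 6.31, 6.37, 6.83 and 4.22 CPM in IgG 1 to 4, the lowest fold change of the arm, and did not pass (edgeR adjusted p = 0.298). Chac1 had 13.5, 22.2, 18.8 and 5.12 CPM in antiCD47 1 to 4 and 10.9 to 14.0 CPM in IgG, so antiCD47 4 lay below every IgG library.

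Ddit4, an inhibitor of mTORC1 signalling, was similarly split, with 11.1, 11.8, 15.7 and 4.79 CPM in antiCD47 1 to 4 and 7.57 to 10.7 CPM in IgG. Atf3, an early stress factor, was highest in antiCD47 3 (11.7 CPM) and antiCD47 4 (9.50 CPM), with 6.81 and 6.93 CPM in antiCD47 1 and antiCD47 2 and 5.46 to 7.61 CPM in IgG. It is thus a member in which antiCD47 2 did not lead. Sesn2, another brake on mTORC1, lay at 8.07 to 12.0 CPM in antiCD47 and 8.47 to 13.6 CPM in IgG (log2 -0.10). Nupr1, a small chromatin protein of the stress response, was at log2 0.47 (edgeR adjusted p = 0.173), with 3.77 to 7.71 CPM in antiCD47 and 2.96 to 4.21 CPM in IgG.

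ATF4 binds, with C/EBP partners, a composite element known as the amino acid response element. Its letters TGATGNAA were found on either strand in windows of 6 members, 5 of them in this arm, and in 4.51% of all genes; Herpud1 holds it apart from its ERSE-II site. The sites found in these 6 members are given, with the motif letters other than N in capitals. The fold changes of the 6 members differed in sign and size, from log2 -0.27 for Trib3 to 1.26 for Asns, and none passed.
Asns, chr6:7693225-7693232, - strand: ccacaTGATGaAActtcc
Atf3, chr1:191183436-191183443, + strand: cttggTGATGcAAgtgcg
Chac1, chr2:119351049-119351056, - strand: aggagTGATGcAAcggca
Herpud1, chr8:94386317-94386324, - strand: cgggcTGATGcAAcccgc
Nupr1, chr7:126625573-126625580, + strand: ctgtcTGATGcAAtctgg
Trib3, chr2:152344039-152344046, + strand: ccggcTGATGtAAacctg

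Over the ATF4 arm the fitted median was 0.37, and 0.23 without antiCD47 2. The library antiCD47 2 was the highest of the 8 in 8 of 12 members and antiCD47 1 the lowest of its group in 6, against 13 and 12 of 13 in the XBP1 and ERAD arm. In this arm 3 genes had groups that did not overlap, all higher in antiCD47 (Atf4, Asns and Ppp1r15a), and over the 38 members 7 did, where 9.51% of all genes did so.

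Other genes of the pathway were read from 7 lists, 153 genes in all, of which 15 rose and 3 fell. Of all genes tested 5.44% were higher and 5.4% lower, which is the background for the counts of each list. The 25 other ER folding genes had a median log2 fold change of 0.05, lower than in the chaperone arm. The disulfide isomerase gene Pdia5 rose (0.62, edgeR adjusted p = 0.0384) and Fkbp7, an ER prolyl isomerase, fell (-0.65, edgeR adjusted p = 0.0471). The 20 other ERAD genes stood at a median of 0.17, with 3 higher, among them Ube2j2 (0.37), a conjugating enzyme of the ER membrane, and Edem3 (0.47), a mannosidase. Of 29 genes of ER translocation and export, with a median of 0.23, the COPII gene Sec23b rose (0.69) and Kdelr3, a receptor that returns ER residents from the Golgi, fell (-0.91, edgeR adjusted p = 0.0258).

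Of 21 sensors and regulators of both responses, 2 rose: Eif2b4 (0.44), a subunit of the exchange factor that phosphorylated eIF2 inhibits, and Impact (0.42), an inhibitor of the kinase GCN2. The 31 other ATF4 targets had a median of 0.28. Slc7a5, a transporter of large amino acids, rose with 3.25, 4.61, 3.65 and 4.91 CPM in antiCD47 1 to 4 and 2.38, 2.13, 1.64 and 1.73 CPM in IgG 1 to 4 (log2 1.06 ± 0.18, edgeR adjusted p = 0.0170), and all antiCD47 libraries were above all IgG libraries. Cebpg (0.64), a partner of ATF4, and the threonyl-tRNA synthetase gene Tars1 (0.58) rose too. Stc2, a secreted glycoprotein gene induced by ATF4, went the other way, with 0.925, 0.503, 0.410 and 0.556 CPM in antiCD47 1 to 4 and 1.60, 1.46, 1.49 and 1.90 CPM in IgG 1 to 4 (log2 -1.42 ± 0.26, edgeR adjusted p = 0.0197).

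Outside the ER, 3 of 17 cytosolic heat shock genes rose, with a list median of 0.27. Fold changes were above 0 in 17 of 17, and in 49.0% of all genes, but ran from log2 0.008 to 0.81. Without antiCD47 2 they were above 0 in 14 of 17, and in 7643 of 15701 genes tested. With library totals alone they were above 0 in 13 of 17, and in 3857 of 15472 genes. Hsp90aa1, the inducible cytosolic HSP90, had 328, 580, 491 and 459 CPM in antiCD47 1 to 4 and 264, 293, 219 and 281 CPM in IgG 1 to 4 (log2 0.81 ± 0.16, edgeR adjusted p = 0.0228), and its co-chaperones Chordc1 (0.52) and Ahsa1 (0.37) rose as well. Of 10 genes of mitochondrial protein quality, Clpx (0.70), the unfoldase of a matrix protease, and Hspd1 (0.29), the mitochondrial HSP60, rose. Of these 18 calls, 9 held without antiCD47 2. Scaled by library totals alone, the medians of the other ER folding genes (-0.14), other ERAD genes (-0.021), sensors and regulators (-0.040) and mitochondrial genes (-0.0071) were below 0, with the median of all genes at -0.19.

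**Figure D4:**
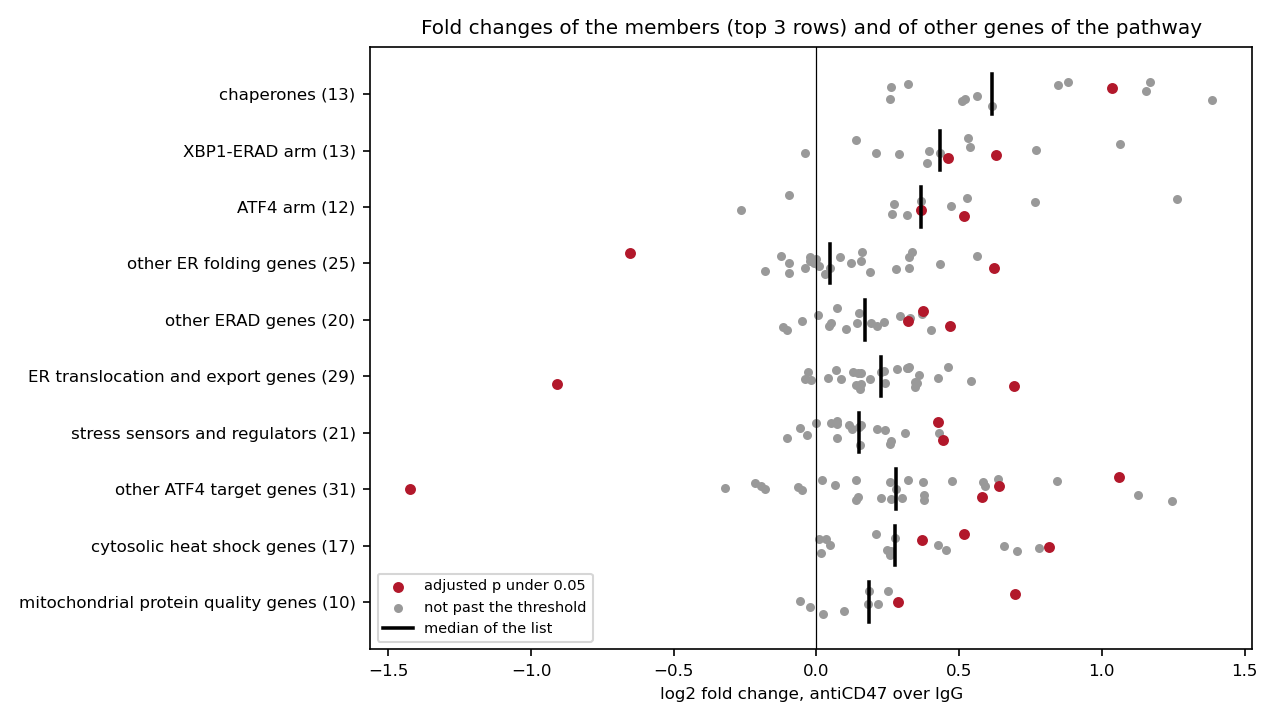
Log2 fold change, antiCD47 over IgG, of every member (top 3 rows) and of every gene in the 7 other lists, with the number of genes in brackets; red points passed adjusted p 0.05 and black bars are list medians. The chaperone arm has the highest median, 0.62, and the other ER folding genes the lowest, 0.05.

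Markers of cell types and of the acute phase reaction differed between the groups and between the antiCD47 libraries. The 10 acute phase genes, which hepatocytes raise in inflammation, rose in 10 of 10, and their summed level was 11118, 21009, 21125 and 11261 CPM in antiCD47 1 to 4 and 4510 to 9033 CPM in IgG, with IgG 2 the highest of its group. The libraries with the highest acute phase sums, antiCD47 2 and antiCD47 3, were also those with the highest median over the members. The orders differed beyond that. The sum was slightly higher in antiCD47 3, whose median log2 ratio was 0.41 against 0.88 in antiCD47 2. Sums were close in antiCD47 1 and antiCD47 4, with medians of 0.00 and 0.30, and both lay above every IgG sum. The 8 hepatocyte markers summed to 61518 to 73878 CPM in antiCD47, highest in antiCD47 2, and to 58429 to 63288 CPM in IgG, with 1 of 8 higher. Kupffer cell markers (6 of 8 higher) summed to 348 to 626 CPM in antiCD47, again highest in antiCD47 2, and to 178 to 338 CPM in IgG. The 8 neutrophil markers, 8 of 8 higher, summed to 17.1 to 35.8 CPM in antiCD47 and to 7.10 to 9.17 CPM in IgG. The part of these cells and of the acute phase reaction in the members' levels was not tested.

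Cholangiocyte markers (5 of 6 lower) summed to 95.3 to 329 CPM in antiCD47, lowest in antiCD47 2, and to 399 to 547 CPM in IgG, and stellate cell and fibroblast markers (4 of 8 lower) to 471 to 673 CPM in antiCD47 and 764 to 1104 CPM in IgG. Erythroid markers (6 of 6 higher) summed to 1231 to 2214 CPM in antiCD47 and 445 to 680 CPM in IgG. Plasma cells carry a large ER, and their list, with B cells, summed to 243 to 298 CPM in antiCD47 and 154 to 237 CPM in IgG, much of it from Sdc1, which hepatocytes also express, and from the immunoglobulin gene Ighm. None of the 11 tested of its 12 genes passed by edgeR (3 at an unadjusted p under 0.05), and antiCD47 2 was the highest library in 0 of them. The plasma cell gene Mzb1 was at 0.22 to 0.42 CPM in antiCD47 and 0 to 0.29 CPM in IgG, with 0 in IgG 2, and Tnfrsf17 had no count in 6 of 8 libraries. The pancreatic acinar list, a check for tissue taken with the liver, held Cela1 at 4.59 to 8.54 CPM in antiCD47 and 6.71 to 9.87 CPM in IgG, while Prss2 and Pnlip had no count in any library.

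In the authors' deposited table, which names no direction for its folds, 9 of the 38 members had an adjusted p under 0.05: Dnajb9 and Dnajc3 among the chaperones, Xbp1, Atf6, Ern1 and Sec24d in the XBP1 and ERAD arm, and Eif2ak3, Atf4 and Asns in the ATF4 arm. The share of all genes under 0.05 in that table was not counted, so these 9 stand without a background. The sign of the fold in the authors' deposited table was that of the edgeR fit in 38 of 38. Both rest on the same 8 libraries, so they are no independent measurement.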

How the data were processed

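Polyadenylated liver RNA was made into TruSeq libraries, per the labels' protocols. The authors deposited estimated counts for Ensembl genes as whole numbers, not normalized; the submitters' processing notes name Salmon 1.3.0, DESeq2 1.32.0 and GRCm39, with no role given for each. No source read here says if Salmon's estimates were rounded to give them. The authors' deposited comparison table holds, per the file headers, a mean normalized count (a signal), log2 fold changes and their errors, a p-value with its adjusted p-value and a rank score; its signs and adjusted p-values alone were used.

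Of 54309 genes, 27899 had no count. Columns were matched to samples by title and 0 columns were left unused. No 2 libraries of a treatment were duplicates: the lowest chi-square over its degrees of freedom was 25.962, and all 8 were kept.

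Genes were filtered with filterByExpr, scaled with TMM and tested with glmQLFit and glmQLFTest in edgeR 4.0.16 (R 4.3.3), two-sided, with Benjamini-Hochberg adjustment over 15472 genes. The common dispersion was 0.028. Fits were tested on simulated data. Alternatives were other scalings, other count filters, DESeq2 1.42.0, limma voom 3.58.1, the replicate number as a block and leaving out single libraries. Leaving out IgG 2 and antiCD47 2 together was chosen after seeing the data.

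The members and lists were chosen with earlier results of these data known. The text names every member, up to 4 genes past the threshold with the smallest p of each other pathway list, and of the marker lists up to 2 with the highest levels and those at 0 in a library; 1 gene that this rule names is not reported here. Promoter windows came from RefSeq (GRCm38.p6), an older build than that of the files, and were matched by symbol for 34 of 38 members; Manf, Atf6, Derl1 and Hyou1 had none matched. Figures were drawn with matplotlib 3.10.9.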

Additional observations from a re-analysis of the deposited data

Results flagged for a closer look

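In 4 of 76 sets of 4 libraries, 1 library lay far from the other 3 of its treatment, where about 1 in 20 would by chance. In 3 of them the library was antiCD47 2: Derl3 was at 9.26 CPM there, against 1.298 to 2.04 CPM in the other antiCD47 libraries, Asns at 17.2 CPM against 5.28 to 6.11 CPM, and Psat1 at 20.3 CPM against 3.65 to 5.95 CPM. In the fourth, Atf4 was at 57.6 CPM in IgG 2, against 47.4 to 48.8 CPM in the other IgG libraries.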

How the results depend on the processing

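Of 646 member fold changes recomputed under 17 alternatives, 567 kept their direction and side of the threshold, 35 no longer passed, 36 passed newly and 8 changed direction. Genes called over the whole table numbered 3581 with library totals alone (428 higher and 3153 lower, against 842 and 836), 3179 by DESeq2, and 1090 without IgG 2 and antiCD47 2 together. By DESeq2 2 chaperones, 6 XBP1 and ERAD genes, 4 ATF4 arm genes and 47 other pathway genes passed. In the ATF4 arm 1 gene passed with library totals, with upper quartile scaling, with limma voom and without IgG 2 and antiCD47 2 together, and 1 gene of the XBP1 and ERAD arm passed in the last. Leaving out 1 library in turn gave 2 to 3630 genes in all, 0 to 10 chaperones, 0 to 7 XBP1 and ERAD genes, 0 to 4 ATF4 arm genes and 0 to 53 other pathway genes; the highest counts came without antiCD47 1.

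The labels do not say whether equal replicate numbers pair the libraries. Deviations from the group means correlated at 0.0316, 0.157, -0.0232 and 0.0345 for numbers 1 to 4. Not every library correlated best with its own number. Correlations over all genes, of deviations from small group means, cannot decide whether libraries of equal number share a batch. With the replicate block 3 chaperones, 6 XBP1 and ERAD genes, 3 ATF4 arm genes and 32 other pathway genes passed, and 2425 genes in all.

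With library totals alone Atf6b was at -0.0548, and list medians were -0.14 for other ER folding genes, -0.021 for other ERAD genes, -0.040 for sensors and regulators and -0.0071 for mitochondrial genes, a scaling in which the median of all genes was -0.19. The other ER folding median was -0.015 with upper quartile scaling and -0.013 without antiCD47 2. Without antiCD47 2, Derl3 was at -0.36 and Psat1 at -0.059, and without IgG 2 as well at -0.21 and -0.0253. Derl2 was at 0.0029 and Sesn2 at 0.0074 without antiCD47 1, and Sesn2 at 0.015 without IgG 1. Leaving out 1 library in turn gave -0.013 to 0.094 for the other ER folding median, -0.12 to 0.0029 for Derl2, -0.36 to 1.05 for Derl3, -0.21 to 0.015 for Sesn2 and -0.059 to 1.02 for Psat1. Apart from the library totals scaling and the left-out libraries, the cause of these changes was not tested. The lowest count of a member in any library was 65, and the part of depth in the members' spread was not tested.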
